A study of Mus musculus with 12 samples.

Results

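The genes described here are 6 members of the metabotropic glutamate receptor family, Grm2, Grm3, Grm4, Grm5, Grm7 and Grm8, followed in the hippocampus of epileptic mice after a single dose of lipopolysaccharide (LPS), a cell wall component of Gram-negative bacteria that starts systemic inflammation. They were chosen by gene name: every transcript probe that the array files assign to one of them was taken, which gave 13 of 41174 probes. A probe was analysed when some group had it well above background on each of its 3 arrays, and 12 of the 13 passed, of 27683 in all. The remaining genes of the family were not analysed here. The mice were C57BL/6N males 12 weeks old, and per the labels' protocols all of them received 50 nl of kainate at 20 mM, an agonist of ionotropic glutamate receptors, into the dorsal hippocampus of the left side under Hypnorm and Hypnovel. After 3 weeks, when seizures recurred, each was injected once into the peritoneum with saline or with LPS from Salmonella at 100 µg/kg, and hippocampi were taken 4 or 24 h later from 3 mice per group. The groups are therefore saline 4 h, LPS 4 h, saline 24 h and LPS 24 h. All 4 groups carry the kainate lesion, no group without kainate is part of the series, and the labels do not say which side was dissected.

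Metabotropic glutamate receptors are G protein-coupled receptors that sense glutamate through a large extracellular domain and change the strength of synapses over longer times than the ion channels do. Group I, represented here by Grm5, couples through Gq to phospholipase C, the release of stored calcium and protein kinase C, and sits mostly around the postsynaptic site. Groups II (Grm2, Grm3) and III (Grm4, Grm7, Grm8) couple through Gi and Go to lower cyclic AMP and lie largely on axons and terminals, where they reduce transmitter release; Grm3 is also prominent on astrocytes. In the hippocampus, Grm2 is known from the mossy fibres of granule cells, Grm5 from pyramidal cell dendrites and Grm7 from the active zones of terminals.

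Of these genes, 3 had more than 1 probe, and the probes are named here by the base of the transcript at which they begin. Positions are those that the array files give on mouse build mm9, and each probe is 60 bases long; exon and UTR annotation of that build was not used here. The probes of Grm5 are shown because their values differ most from one another. They lie on the plus strand, at chr7:94751387-94751446 (base 1051), chr7:94751530-94751589 (base 1194), chr7:95280099-95280158 (base 5049) and chr7:95280993-95281052 (base 5943). The array files number the first pair on another transcript than the second pair. No base is capitalised, and of the 2 later probes only the first 30 bases are given.
Grm5 base 1051: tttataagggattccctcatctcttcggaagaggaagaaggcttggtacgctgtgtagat
Grm5 base 1194: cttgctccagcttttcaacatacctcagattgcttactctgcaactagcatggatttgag
Grm5 base 5049 (first 30): aaccaagaaaaccagtgcaagatttctgga
Grm5 base 5943 (first 30): agaaggaggtattctataaatttaaagttc

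The 3 Grm7 probes, on the plus strand of chromosome 6, are shown for the same reason. The probe at base 1147 spans chr6:111016897-111030371 and the probe at base 2921 spans chr6:111445847-111516024, stretches of 13475 and 70178 bases, so that each crosses an intron. The probe at base 1444 lies at chr6:111196169-111196228.
Grm7 base 1147: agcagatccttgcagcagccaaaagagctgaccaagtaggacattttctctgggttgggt
Grm7 base 1444: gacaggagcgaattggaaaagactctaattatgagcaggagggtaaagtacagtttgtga
Grm7 base 2921: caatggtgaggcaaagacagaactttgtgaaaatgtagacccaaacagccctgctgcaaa

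The Grm2 probes lie on the minus strand, at chr9:106553374-106553433 (base 801) and chr9:106545437-106545496 (base 2111), and are given because both moved in the same direction at each time. The array files number them on different transcripts.
Grm2 base 801: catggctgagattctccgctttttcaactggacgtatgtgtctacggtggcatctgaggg
Grm2 base 2111 (first 30): ggcatcaatgggctggtgaagtctctggaa
The remaining Grm2 probe at chr9:106545189-106545248 lies on the plus strand, opposite to the gene. It was well above background on 1 of 12 arrays and was the member probe left out. Grm3 (chr5:9485369-9485428), Grm4 (chr17:27572067-27572126) and Grm8 (chr6:27225620-27225679) have 1 probe each, all on the minus strand.

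Levels are given as log2 of the background-subtracted intensity relative to the 75th percentile of the same array, so that 0 is the signal of that percentile. Levels of different probes are not compared, since each probe has its own brightness. That percentile was 385 ± 12.4 intensity units (SD, n = 3) with saline and 702 ± 35.5 with LPS at 4 h, and 798 ± 61.3 with saline and 864 ± 124 with LPS at 24 h, and 53.9% to 55.0% of probes were well above background in saline 4 h against 69.0% to 70.9% in LPS 24 h. Saline 4 h therefore stood apart as the dimmest group, and the part of this in the results was not tested. Each of 6 slides held 1 saline and 1 LPS array of the same time. All 4 h arrays were scanned in 1 run and all 24 h arrays in another, so that a difference between times and a difference between runs cannot be told apart. The 12 markers of hippocampal excitatory neurons, among them the granule cell gene Prox1 and the glutamate transporter Slc17a7, were each well above background on at least 1 array of every group.

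At 4 h, the called probes of Grm5 and Grm2 were higher after LPS than after saline, and those of Grm3, Grm7 and Grm8 were lower. Grm5 at base 1051 and Grm7 at base 2921 were not called, and some calls were lost with another background correction, as given below. In limma's fit across all probes, 5 of the 12 receptor probes were called higher and 4 lower (Benjamini-Hochberg adjusted p under 0.05), and 3 were not called. Over all 27683 probes, 71.0% were called at this time, 31.6% higher and 39.4% lower, so 9 of 12 lies near the share among all probes. The groups did not overlap at 10 of the 12 receptor probes, against 74.6% of all probes. The median difference of the receptor probes was 0.17 log2 units and that of all probes was -0.08. In these bulk samples, fewer cells of a type and less RNA per cell cannot be told apart.

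Grm5, the Gq-coupled receptor, had the largest difference among the 12 receptor probes at 4 h. Its probe at base 5943 read -5.21, -5.74 and -5.27 with saline and -2.47, -2.43 and -2.42 with LPS at 4 h, then -1.71, -1.80 and -1.58 with saline and -2.13, -2.08 and -2.11 with LPS at 24 h. The 3 saline 4 h arrays were far below the other 9 and were not well above background. The rise at 4 h was at least 4.91-fold (adjusted p = 1.47e-08). An "at least" value sets the brighter mean against the detection floor of the dimmer group: on each of its arrays, the weakest signal that counted as above background, or the probe's own signal if stronger. Such a value holds only for levels as defined above, and an adjusted p beside it is that of the fitted difference. The fitted difference was 2.97 ± 0.12 (SE). Another background correction, normexp, models the background, keeps every signal positive and was run with an offset of 50 units added to each signal. With normexp the difference was 0.70 (adjusted p = 0.00103), and in the authors' deposited matrix it was 1.00 (adjusted p = 1.47e-08). The saline 4 h signals of this probe lay below that offset, and an added constant makes log2 differences of dim signals smaller. The deposited matrix is close to normexp with the same offset and quantile normalization, so the 2 values are not separate checks.

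The Grm5 probe at base 5049, bright in every group, read -0.09, -0.08 and -0.10 with saline and 1.21, 1.24 and 1.21 with LPS at 4 h, then 2.18, 2.42 and 2.38 with saline and 2.06, 2.09 and 2.07 with LPS at 24 h. Saline 4 h was again the lowest group and LPS 4 h the next, with no overlap at 4 h. The difference at 4 h was 1.31 ± 0.05, a 2.47-fold rise (adjusted p = 1.62e-08), and on the 3 slides it was 1.29, 1.29 and 1.34. The 2 earlier probes moved less. At base 1194 the levels were -2.10, -2.31 and -2.29 with saline and -1.86, -1.76 and -1.84 with LPS at 4 h, then -1.13 to -0.95 with saline and -1.04, -1.08 and -1.10 with LPS at 24 h. The groups did not overlap at 4 h, and the difference of 0.41 ± 0.06 passed the test (adjusted p = 0.000237), but not with normexp, where it was 0.21 (adjusted p = 0.0768). At base 1051 the levels were -3.43, -2.30 and -3.31 with saline and -2.70, -2.55 and -2.67 with LPS at 4 h, then -1.79, -1.70 and -1.80 with saline and -1.93, -1.83 and -1.82 with LPS at 24 h. Saline 4 h replicate 2 lay above all LPS 4 h arrays and away from its own group, and the difference of 0.37 ± 0.24 did not pass (95% interval -0.16 to 0.91, adjusted p = 0.187). Without that array it was 0.73 (adjusted p = 9.02e-06).

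**Figure D1:**
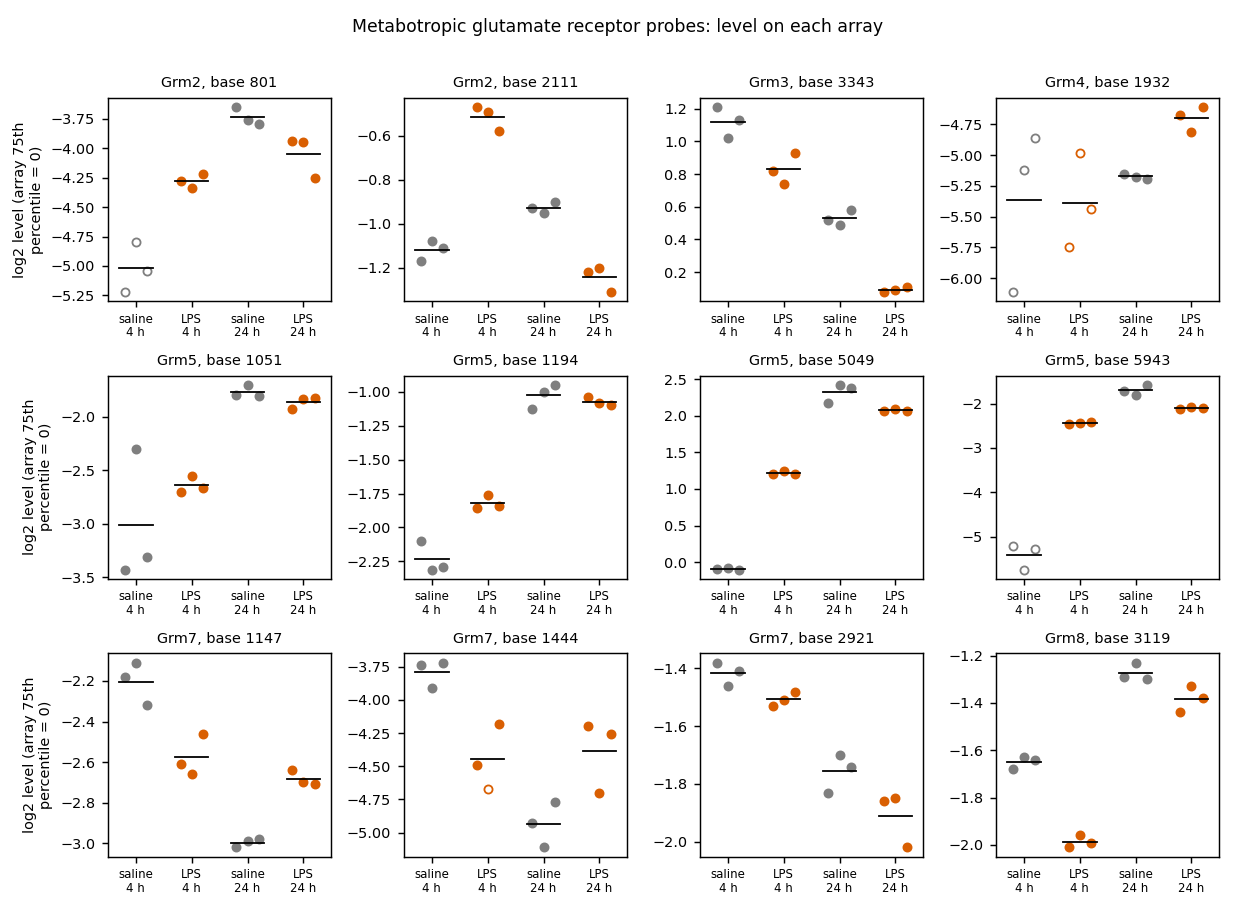
Level of each of the 12 receptor probes on each array, in log2 units relative to the array's 75th percentile (vertical axes differ between panels), with a line at the mean of the 3 arrays of a group. Open circles are arrays on which the probe was not well above background. The Grm5 probes at bases 5049 and 5943 are lowest in saline 4 h, at -0.10 to -0.08 and -5.74 to -5.21, and highest in saline 24 h.

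Of the group II receptors, which restrain glutamate release, Grm2 rose and Grm3 fell at 4 h. The Grm2 probe at base 2111 read -1.17, -1.08 and -1.11 with saline and -0.47, -0.49 and -0.58 with LPS at 4 h, then -0.93, -0.95 and -0.90 with saline and -1.22, -1.20 and -1.31 with LPS at 24 h. LPS 4 h was the highest of the 4 groups and overlapped none of them. The difference at 4 h was 0.61 ± 0.04, or 1.53-fold (adjusted p = 7.47e-07). The dimmer probe at base 801 read -5.22, -4.80 and -5.04 with saline (not well above background) and -4.28, -4.34 and -4.22 with LPS at 4 h, then -3.65, -3.76 and -3.79 with saline and -3.94, -3.95 and -4.25 with LPS at 24 h. Its arrays did not overlap at 4 h and the rise was at least 1.37-fold (0.74 ± 0.11, adjusted p = 0.000179). With normexp the direction at base 801 turned and the difference was -0.018 (adjusted p = 0.941). In the authors' deposited matrix it was 0.17 (adjusted p = 0.0126).

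The Grm3 probe, for the receptor shared by neurons and astrocytes, read 1.21, 1.02 and 1.13 with saline and 0.82, 0.74 and 0.93 with LPS at 4 h, then 0.52, 0.49 and 0.58 with saline and 0.08, 0.09 and 0.11 with LPS at 24 h. The 4 groups stood in that order with no overlap between neighbours. At 4 h Grm3 fell by 0.29 ± 0.06 (adjusted p = 0.00126), and by 0.28, 0.20 and 0.39 on the 3 slides. With the arrays scaled to their medians the fall was larger, at -0.46 (adjusted p = 0.000241).

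Among the group III autoreceptors, Grm8 and 2 of the 3 Grm7 probes fell at 4 h. Grm8 read -1.68, -1.63 and -1.64 with saline and -2.01, -1.96 and -1.99 with LPS at 4 h, then -1.29, -1.23 and -1.30 with saline and -1.44, -1.33 and -1.38 with LPS at 24 h. LPS 4 h was the lowest group, and the difference of -0.34 ± 0.04 (adjusted p = 1.74e-05) was -0.31, -0.38 and -0.31 on the 3 slides. Grm4, a receptor better known from the cerebellum, was not well above background on any 4 h array, so no fold is given there. It read -6.11, -5.12 and -4.86 with saline and -5.75, -4.98 and -5.44 with LPS at 4 h, then -5.15, -5.18 and -5.19 with saline and -4.67, -4.81 and -4.61 with LPS at 24 h. The 4 h groups overlapped widely, and the difference of -0.03 ± 0.29 did not pass (95% interval -0.68 to 0.63, adjusted p = 0.940).

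Grm7 encodes the low-affinity autoreceptor of the active zone, and its probes did not move alike. At base 1147 the levels were -2.18, -2.11 and -2.32 with saline and -2.61, -2.66 and -2.46 with LPS at 4 h, then -3.02, -2.99 and -2.98 with saline and -2.64, -2.70 and -2.71 with LPS at 24 h. Both LPS groups lay between the saline groups and overlapped each other. The fall at 4 h was -0.38 ± 0.06 (adjusted p = 0.000318). At base 1444 the levels were -3.74, -3.91 and -3.72 with saline and -4.49, -4.67 and -4.18 with LPS at 4 h, then -4.93, -5.11 and -4.77 with saline and -4.20, -4.70 and -4.26 with LPS at 24 h. The LPS groups again lay between the saline groups and overlapped, with 1 of the 3 LPS 4 h arrays not well above background. The fall at 4 h was -0.66 ± 0.16 (adjusted p = 0.00408). With normexp neither probe passed at 4 h, at -0.27 (adjusted p = 0.0626) for base 1147 and -0.32 (adjusted p = 0.303) for base 1444. At base 2921 the levels were -1.38, -1.46 and -1.41 with saline and -1.53, -1.51 and -1.48 with LPS at 4 h, then -1.83, -1.70 and -1.74 with saline and -1.86, -1.85 and -2.02 with LPS at 24 h. The 4 h groups did not overlap but lay close, and the difference of -0.09 ± 0.05 did not pass (95% interval -0.21 to 0.03, adjusted p = 0.15). It passed with quantile normalization (-0.17, adjusted p = 0.0198) and with median scaling (-0.26, adjusted p = 0.00510).

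At 24 h most of the called receptor probes were lower after LPS. Grm3 and both Grm2 probes fell, the 2 later Grm5 probes fell, and the 2 earlier Grm7 probes rose. In limma's fit 2 of the 12 receptor probes were called higher, 7 lower and 3 not, while 41.7% of all probes were called, 20.8% higher and 20.9% lower. The groups did not overlap at 11 of the 12 receptor probes, against 53.7% of all probes. The median difference was -0.13 log2 units, and over all probes it was 0.003.

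Grm3 had the fall with the smallest adjusted p at 24 h, at -0.44 ± 0.06 (adjusted p = 0.000276), or 1.35-fold, with -0.44, -0.40 and -0.47 on the 3 slides. LPS 24 h was the lowest of its 4 groups. Grm2 fell by 0.32 ± 0.04 at base 2111 (adjusted p = 0.000311). At base 801 the difference was -0.31 ± 0.11 (adjusted p = 0.0481), a call lost on leaving out any of 9 of the 12 arrays (adjusted p 0.0563 to 0.153), the exceptions being saline 4 h replicates 1 and 2 and LPS 24 h replicate 1. It was also lost with slide as a block (adjusted p = 0.0561) and with normexp (adjusted p = 0.601). Every LPS array of both genes lay below every saline array at 24 h.

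At 24 h both later Grm5 probes were lower after LPS, and neither earlier probe was called. At base 5049 the difference was -0.26 ± 0.05 (adjusted p = 0.00382) and at base 5943 it was -0.41 ± 0.12 (adjusted p = 0.0203). The second call was lost without saline 24 h replicate 3 (-0.35, adjusted p = 0.0721) or without LPS 24 h replicate 1 (-0.40, adjusted p = 0.0563), and with normexp both were lost (adjusted p = 0.0583 and 0.149). With quantile normalization the call at base 5943 was lost as well (adjusted p = 0.0576). At base 1194, where the groups overlapped, the difference was -0.05 ± 0.06 (95% interval -0.19 to 0.10, adjusted p = 0.614), and at base 1051 it was -0.10 ± 0.24 (95% interval -0.63 to 0.44, adjusted p = 0.781).

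The group III receptors diverged at 24 h. Grm7 rose by 0.31 ± 0.06 at base 1147 (adjusted p = 0.00280) and by 0.55 ± 0.16 at base 1444 (adjusted p = 0.0198), and fell by 0.15 ± 0.05 at base 2921 (adjusted p = 0.0399). The rise at base 1444 was lost without saline 24 h replicate 2, LPS 24 h replicate 1 or LPS 24 h replicate 3 (adjusted p 0.0640 to 0.0724), and with quantile normalization (adjusted p = 0.0827). In the authors' deposited matrix neither rise passed, at 0.13 (adjusted p = 0.0775) and 0.10 (adjusted p = 0.214), nor did they with normexp, at 0.19 (adjusted p = 0.329) and 0.14 (adjusted p = 0.850). The fall at base 2921 was lost without 7 of the 12 arrays in turn (adjusted p 0.0534 to 0.128): saline 4 h replicate 3, any LPS 4 h array, saline 24 h replicates 2 and 3 and LPS 24 h replicate 3. With slide as a block it was also lost (adjusted p = 0.0640). Grm8 was lower by a small amount, -0.11 ± 0.04 (adjusted p = 0.0397), a call lost without 9 of the 12 arrays in turn (adjusted p 0.0514 to 0.132), the exceptions being saline 4 h replicate 1, saline 24 h replicate 3 and LPS 24 h replicate 2. Grm4 was well above background on all 24 h arrays, its groups did not overlap, and its difference of 0.48 ± 0.29 did not pass (95% interval -0.18 to 1.13, adjusted p = 0.226). It passed when only the 6 arrays of 24 h were fitted (adjusted p = 0.00246) or without saline 4 h replicate 1 (adjusted p = 0.0490).

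**Figure D2:**
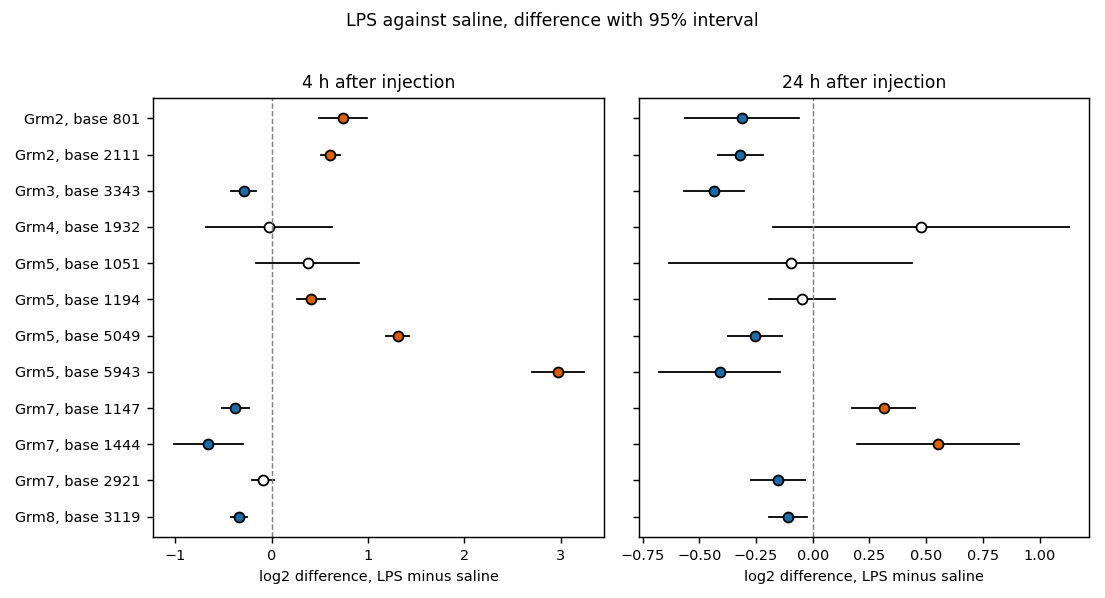
Log2 difference of LPS minus saline at 4 h and 24 h for each receptor probe, with its 95% interval from limma; orange marks probes called higher, blue lower and white not called, and the horizontal scales of the panels differ. The Grm5 differences at 4 h run from 0.37 to 2.97, while at 24 h all receptor probes lie between -0.44 and 0.55.

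The response at 24 h minus that at 4 h was tested as a difference of its own. It was called at 8 of the 12 receptor probes, 3 higher and 5 lower, beside 65.9% of all probes (37.6% higher, 28.3% lower). Grm5 at base 5943 gave -3.38 ± 0.17 (adjusted p = 1.06e-07), a fitted value that rests on saline 4 h arrays not above background. Grm2 at base 2111, measured on all arrays, gave -0.93 ± 0.06 (adjusted p = 7.13e-07). Grm3, called lower at both times, gave -0.14 ± 0.08 (95% interval -0.33 to 0.04, adjusted p = 0.153).

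The saline groups themselves differed widely, which bears on every LPS value because saline is its control. Between saline 4 h and saline 24 h, 7 of the 12 receptor probes were higher at 24 h and 4 lower, beside 79.5% of all probes called (38.0% higher, 41.5% lower). The saline groups did not overlap at 11 of the 12, Grm4 being the exception, against 81.5% of all probes. All 4 Grm5 probes rose, by 1.25 ± 0.24 at base 1051 (adjusted p = 0.000743), 1.21 ± 0.06 at base 1194 (adjusted p = 4.35e-08), 2.41 ± 0.05 at base 5049 (adjusted p = 1.13e-10) and at least 8.19-fold at base 5943 (adjusted p = 1.06e-09). All 3 Grm7 probes fell, by 0.79 ± 0.06, 1.15 ± 0.16 and 0.34 ± 0.05 in transcript order. Grm3 fell by 0.59 ± 0.06. Grm8 rose by 0.38 ± 0.04, but with normexp its difference of 0.145 did not pass (adjusted p = 0.125). Grm2 at base 801 rose at least 2.00-fold, and with normexp it turned to -0.25 (adjusted p = 0.213). At Grm2 base 2111 the difference was 0.20 ± 0.04, a call that was lost with normexp (0.040, adjusted p = 0.601), quantile normalization (0.0997, adjusted p = 0.0735), median scaling (0.011, adjusted p = 0.835) and in the authors' deposited matrix (0.076, adjusted p = 0.240). This comparison shares the saline 4 h arrays with that of LPS at 4 h. For Grm5 at base 5049 the difference between the saline groups was larger than the LPS difference at 4 h, while for Grm2 at base 2111 it was smaller.

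With the saline arrays of the other time as control, most receptor calls turned. Of the 9 probes called at 4 h, 2 kept their call, Grm2 at base 2111 (0.42 ± 0.04, adjusted p = 1.45e-05) and Grm8 (-0.72 ± 0.04, adjusted p = 7.60e-08), and 7 were called in the opposite direction. Among all probes called at 4 h, 43.8% were called in the opposite direction in this way. Grm5 at base 5049 was -1.11 ± 0.05 against saline 24 h, and Grm3 was 0.30 ± 0.06. Of the 9 probes called at 24 h, 3 kept their call: Grm2 at base 2111 (-0.12 ± 0.04, adjusted p = 0.0240), Grm3 (-1.03 ± 0.06, adjusted p = 7.36e-08) and Grm7 at base 2921 (-0.50 ± 0.05, adjusted p = 9.51e-06). The other 6 were called in the opposite direction, beside 39.1% of all probes called at 24 h. Grm2 at base 2111 was the only receptor probe that kept its call with either control at both times. The controls of the other time were scanned in another run, so that this comparison mixes time and run.

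**Figure D3:**
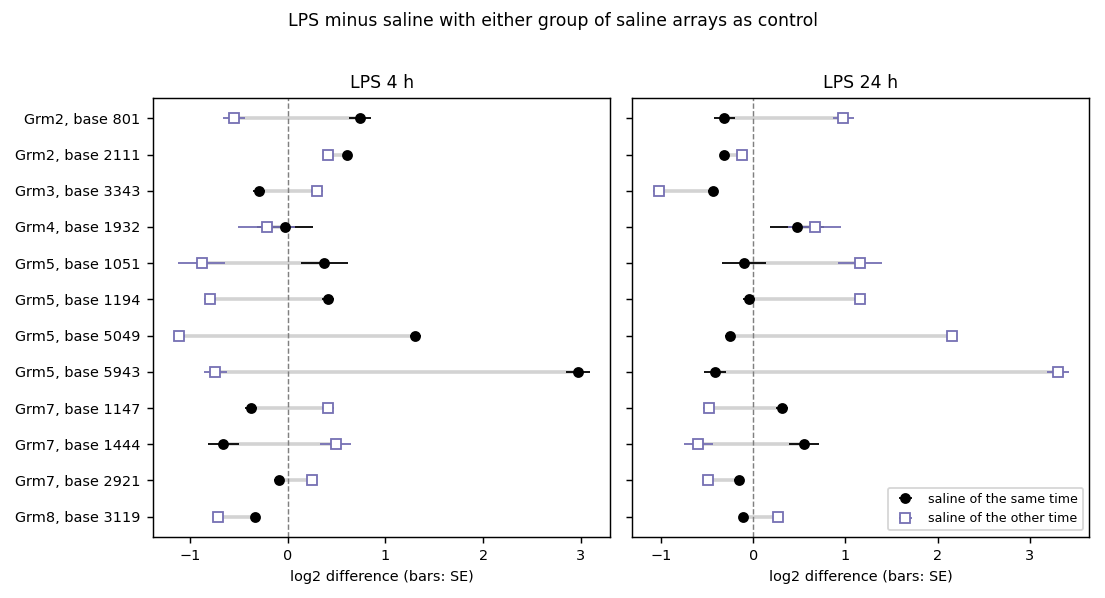
Log2 difference of each LPS group from the saline arrays of its own time (filled circles) and from those of the other time (open squares), with SE, for the 12 receptor probes. Most pairs lie on opposite sides of 0; at Grm2 base 2111 the pairs are 0.61 and 0.42 at 4 h, and -0.32 and -0.12 at 24 h.

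The Grm5 differences were also set beside the positions of their probes. At 4 h they were 0.37, 0.41, 1.31 and 2.97 at bases 1051, 1194, 5049 and 5943, and at 24 h they were -0.10, -0.05, -0.26 and -0.41. The value of 2.97 is a fitted one against saline 4 h arrays that were not well above background. The order of the last pair of probes at 4 h turned with normexp, at 1.15 for base 5049 and 0.70 for base 5943, and in the authors' deposited matrix, at 1.12 and 1.00. On the 3 slides of 4 h, base 1194 gave 0.26, 0.45 and 0.53 and base 5049 gave 1.29, 1.29 and 1.34. In Grm7 the 2 earlier probes stood apart from the last one at both times. The probe order of a gene was looked at after its values were seen, and the difference between probes of a gene was not tested. Across 3060 transcripts whose first and last probes are numbered on the same transcript and lie at least 1000 bases apart, the later probe exceeded the earlier in 53.9% at 4 h, by a median of 0.06, and in 30.6% at 24 h, by a median of -0.11. The lower and upper quartiles of that difference at 4 h were -0.37 and 0.51. Grm5 is not in this set. Its earlier and later pairs are numbered on different transcripts, and the probes of each pair lie less than 1000 bases apart.

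**Figure D4:**
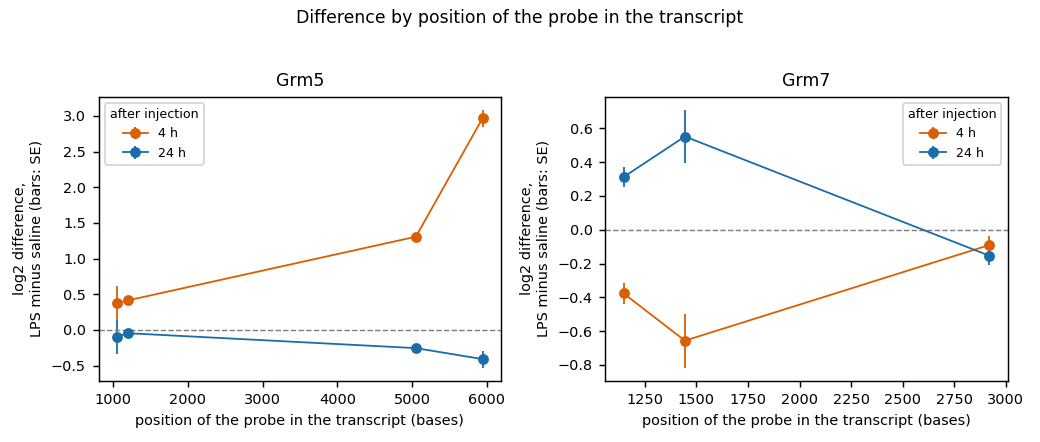
Log2 difference of LPS minus saline at 4 h and 24 h against the base of the transcript at which the probe begins, for Grm5 (4 probes, of which the first pair is numbered on another transcript than the second) and Grm7 (3 probes), with SE. The Grm5 difference at 4 h is 0.41 at base 1194, 1.31 at base 5049 and 2.97 at base 5943, the last a fitted value against saline arrays not well above background; the Grm7 differences at 4 h and 24 h are on opposite sides of 0 at bases 1147 and 1444.

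Genes of the pathways that these receptors use were counted in 6 lists, each gene by its brightest probe. By that measure 29.1% of 18193 genes were called higher and 44.2% lower at 4 h (median -0.15), and 22.7% higher and 22.0% lower at 24 h (median 0.003). The scaffolds and binding partners, which hold the receptors at the synapse, had 8 of 16 genes higher and 5 lower at 4 h (median 0.21), and 0 higher and 11 lower at 24 h (median -0.22). At 4 h the median was 0.019 with normexp (7 higher, 2 lower) and 0.039 with median scaling (8 higher, 7 lower). Dlg4, the postsynaptic density protein PSD-95, rose by 1.38 ± 0.04 at 4 h (adjusted p = 1.75e-09) and fell by 0.47 ± 0.04 at 24 h (adjusted p = 1.11e-05). Shank3, a scaffold that Homer links to group I receptors, rose by 0.81 ± 0.05 at 4 h (adjusted p = 1.71e-07), and Ncdn, a binding partner of Grm5, rose by 0.66 ± 0.03 (adjusted p = 8.06e-08). At 24 h Homer2, which ties group I receptors to calcium stores, fell by 0.34 ± 0.04 (adjusted p = 7.80e-05). With the saline arrays of the other time, 0 of the 16 were higher and 13 lower at 4 h, and 10 were higher and 3 lower at 24 h.

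The group I signalling list, from Gq to protein kinase C, had 6 of 12 genes higher and 3 lower at 4 h (median 0.22, but -0.05 with normexp), and 2 higher and 8 lower at 24 h (median -0.23). At 4 h 3 were higher and 4 lower with median scaling (median 0.056), and 3 higher and 2 lower in the authors' deposited matrix (median 0.052), while at 24 h 0 were higher and 2 lower with normexp. Itpr1, the receptor that releases calcium from the store, rose by 0.30 ± 0.05 at 4 h (adjusted p = 0.000208) and fell by 0.53 ± 0.05 at 24 h (adjusted p = 1.60e-05). Prkcb, a protein kinase C, rose by 0.29 ± 0.04 at 4 h (adjusted p = 0.000137), while Gna11, a G protein of the Gq family, fell by 0.44 ± 0.03 (adjusted p = 8.65e-07), with its other probe called higher. At 24 h Gnaq, the Gq protein itself, fell by 0.32 ± 0.03 (adjusted p = 3.34e-05) and Plcb1, a phospholipase C, by 0.39 ± 0.06 (adjusted p = 0.000457). With saline of the other time, 1 of the 12 was higher and 8 lower at 4 h, and 7 were higher and 3 lower at 24 h.

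The group II and III signalling list, with Gi and Go proteins, adenylyl cyclases and potassium channels, had 5 of 14 genes higher and 8 lower at 4 h (median -0.19, but 0.01 with quantile normalization and 0.02 in the authors' deposited matrix). At 24 h 4 were higher and 5 lower (median -0.01, but 0.03 with quantile normalization). Saline of the other time gave 2 higher and 10 lower at 4 h, and 6 higher and 5 lower at 24 h. Gnao1, the Go protein, rose by 1.18 ± 0.04 at 4 h (adjusted p = 6.93e-09) and fell by 0.28 ± 0.04 at 24 h (adjusted p = 0.000593). The G protein gamma subunit Gng3 rose by 1.01 ± 0.03 at 4 h (adjusted p = 2.92e-09). The potassium channel subunit Kcnj3 rose at both times, by 0.59 ± 0.03 (adjusted p = 4.09e-08) and 0.18 ± 0.03 (adjusted p = 0.000716), although another of its probes was called lower at 4 h, and Gnai2 rose by 0.28 ± 0.05 at 24 h (adjusted p = 0.00108).

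The lists of regulators and effectors were mixed. Among RGS proteins, receptor kinases and arrestins, which end G protein signals, 4 of 10 were higher and 5 lower at 4 h (median -0.11, but 0.02 with quantile normalization and 0.03 in the authors' deposited matrix), and 2 higher and 4 lower at 24 h (median -0.12). Against saline of the other time, 6 were higher and 4 lower at 4 h (median 0.23), and 3 higher and 6 lower at 24 h. Rgs2, which acts on Gq, fell by 1.52 ± 0.04 at 4 h (adjusted p = 1.62e-09) and rose by 0.54 ± 0.04 at 24 h (adjusted p = 8.15e-06). Its mean levels were 6.80 with saline and 5.27 with LPS at 4 h, and 4.58 and 5.11 at 24 h. Both LPS means thus lay between the saline means. Rgs8 fell at both times, by 0.50 ± 0.05 (adjusted p = 6.59e-06) and 0.58 ± 0.05 (adjusted p = 1.13e-05), Rgs14 fell by 0.71 ± 0.04 at 24 h (adjusted p = 1.14e-06), and the receptor kinase Grk3 rose by 0.68 ± 0.04 at 4 h (adjusted p = 1.21e-07), with another of its probes called lower. In the list of receptor-dependent synaptic depression and local translation, 4 of 11 were higher and 4 lower at 4 h (median 0.04, but -0.13 with median scaling), and 4 higher and 3 lower at 24 h (median -0.02, but 0.02 with normexp, 0.01 with quantile normalization and 0.03 in the authors' deposited matrix). Against saline of the other time, 5 of these 11 were higher and 4 lower at 4 h, and 5 higher and 6 lower at 24 h. The microtubule protein Map1b rose by 1.77 ± 0.07 at 4 h (adjusted p = 1.39e-08) and fell by 0.49 ± 0.07 at 24 h (adjusted p = 0.000429). The pentraxin Nptx2 fell by 0.50 ± 0.03 (adjusted p = 1.36e-07) and then rose by 0.31 ± 0.03 (adjusted p = 1.99e-05), and Cyfip1, a partner of the translation repressor FMRP, fell by 0.52 ± 0.04 at 4 h (adjusted p = 2.10e-06).

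Endocannabinoids, made after group I receptors are activated, act back on terminals. Of 8 genes for their synthesis, receptor and breakdown, 2 were higher and 3 lower at 4 h and 2 higher and 2 lower at 24 h, with a median of -0.12 at both times. Saline of the other time gave 4 higher and 4 lower at 4 h, and 4 higher and 3 lower at 24 h. Mgll, which breaks down 2-arachidonoylglycerol, fell by 0.83 ± 0.03 at 4 h (adjusted p = 7.30e-09) and by 0.28 ± 0.03 at 24 h (adjusted p = 5.11e-05). Napepld, which makes anandamide, rose by 0.80 ± 0.04 at 4 h (adjusted p = 1.26e-07) and fell by 0.18 ± 0.04 at 24 h (adjusted p = 0.00848). Daglb, which makes 2-arachidonoylglycerol, rose by 0.31 ± 0.03 at 4 h (adjusted p = 2.02e-05), with another probe called lower, and the hydrolase gene Abhd12 rose by 0.17 ± 0.04 at 24 h (adjusted p = 0.00582).

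**Figure D5:**
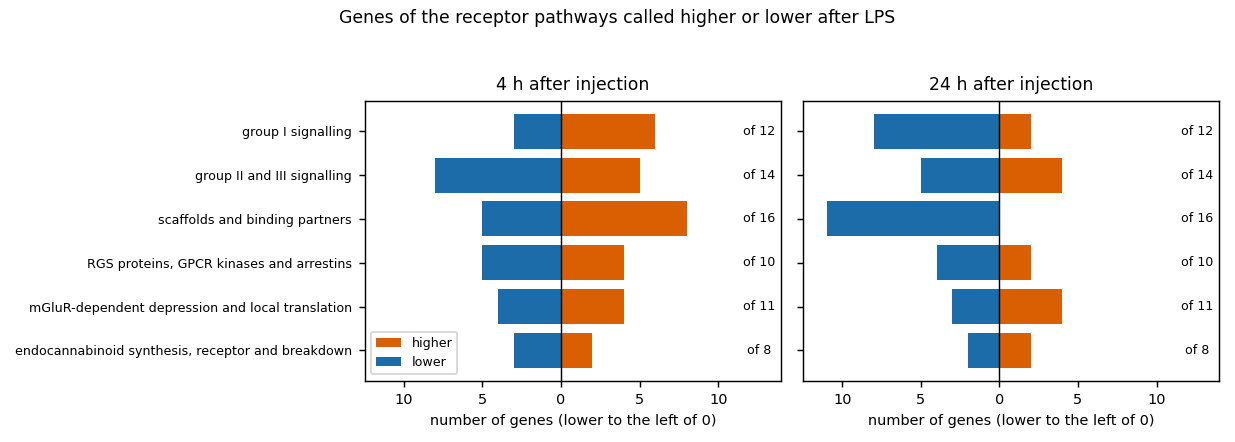
Number of genes of each of the 6 pathway lists called higher (orange, right of 0) or lower (blue, left of 0) by limma after LPS at 4 h and at 24 h, with the number measured at the right of each bar. Scaffolds and binding partners go from 8 higher and 5 lower of 16 at 4 h to 0 higher and 11 lower at 24 h.

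Markers of the cells that carry these receptors moved with the same comparisons. Of 12 markers of excitatory neurons, 7 rose and 1 fell after LPS at 4 h, and 1 was higher and 9 lower at 24 h, beside the rises of Grm5 and Grm2 at 4 h and their falls at 24 h. These counts turned with saline of the other time as control. They were then 4 higher and 6 lower at 4 h (median -0.13), and 7 higher and 4 lower at 24 h (median 0.40). Camk2a, a kinase of excitatory neurons, rose by 1.01 ± 0.03 at 4 h (adjusted p = 2.59e-09), and Dsp and C1ql2, both genes of granule cells, fell by 0.79 ± 0.04 (adjusted p = 8.12e-07) and 0.67 ± 0.04 (adjusted p = 1.56e-06) at 24 h. Bok, the marker that fell at 4 h, did so by 1.22 ± 0.03 (adjusted p = 1.34e-09). The linear levels of the 12, in units of the array's 75th percentile, were also summed over probes of unequal brightness. This sum is read only between groups, and bright probes weigh most in it. It was 196 to 199 with saline and 144 to 145 with LPS at 4 h. At 24 h it was 130 to 136 with saline and 116 to 120 with LPS. Bok was bright, with mean log2 levels of 6.997 with saline and 5.776 with LPS at 4 h. Those of Camk2a were 3.891 and 4.904. The high sum in saline 4 h and its fall with LPS therefore do not show the direction of most of these markers. Of 10 interneuron markers 4 were higher and 3 lower at 4 h (median 0.14, but -0.026 with median scaling), and 1 higher and 4 lower at 24 h. Saline of the other time gave 1 higher and 6 lower at 4 h, and 4 higher and 3 lower at 24 h. Beside the falls of Grm3, 5 of 12 astrocyte markers were higher and 5 lower at 4 h (median 0.15, but -0.019 with median scaling), and 8 higher and 2 lower at 24 h, when Aldh1l1 rose by 0.35 ± 0.03 (adjusted p = 3.63e-05). Set against saline of the other time, 9 astrocyte markers were higher and 1 lower at 4 h. At 24 h 5 were then higher and 6 lower. The part of these cell types in the receptor values was not tested.

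Markers of neighbouring tissue and other cells moved as well. Of 10 thalamus and habenula markers, 3 were higher and 5 lower at 4 h, and 10 higher and 0 lower at 24 h, with a summed level of 8.39 to 8.82 in saline 24 h and 13.6 to 14.1 in LPS 24 h. The sum was 21.5 to 22.3 in saline 4 h and 16.36 to 16.45 in LPS 4 h, so that saline 24 h was the lowest group. Against saline of the other time, 9 of these markers were higher and 1 lower at 4 h, and 3 higher and 6 lower at 24 h. Prkcd, a thalamic gene, rose by 1.28 ± 0.05 at 24 h (adjusted p = 5.25e-08). Of 8 choroid plexus and ependyma markers, 2 were higher and 6 lower at 4 h and 7 higher and 0 lower at 24 h. Saline of the other time gave 3 higher and 2 lower at 4 h, and 4 higher and 3 lower at 24 h. Microglia markers were 1 higher and 7 lower of 10 at 4 h and 8 higher and 1 lower at 24 h, and endothelial markers 2 higher and 8 lower of 10 and then 9 higher and 0 lower. Against saline of the other time, microglia markers were 6 higher and 3 lower at 4 h, and 2 higher and 6 lower at 24 h. Endothelial markers were then 3 higher and 7 lower at 4 h, and 7 higher and 3 lower at 24 h. Of 10 oligodendrocyte markers 3 were higher and 6 lower at 4 h (median -0.17), but 6 higher and 4 lower with quantile normalization (median 0.16) and 5 higher and 3 lower in the authors' deposited matrix (median 0.15). At 24 h 1 was higher and 3 lower (median -0.011, but 0.025 with normexp, 0.042 with quantile normalization and 0.018 in the authors' deposited matrix). Saline of the other time gave 7 higher and 2 lower oligodendrocyte markers at 4 h, and 2 higher and 8 lower at 24 h. By its brightest probe, none of these markers was below background on all arrays of a group. Their part in the receptor values was not tested.

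For the brightest probe of each receptor, the genes whose levels over the 12 arrays were most like it were listed as a description. The arrays share their groups and scan runs, which alone can make Pearson's r high. Grm5 (base 5049) was most like Gnaz (r = 0.9990) and Snrpd3 (r = 0.9988), Grm2 (base 2111) most like Ptn (r = 0.9842) and St8sia1 (r = 0.9838), and Grm3 most like Pkp4 (r = 0.9947) and Ankra2 (r = 0.9933). Grm7 (base 2921) was most like Bnip3l (r = 0.9935) and Atl2 (r = 0.9868), Grm8 most like Hsp90ab1 (r = 0.9916) and Golgb1 (r = 0.9907), and Grm4 most like Ccnk (r = 0.9460) and Ttc34 (r = 0.9394).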

How the data were processed

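The 12 samples were each measured on 1 one-colour (Cy3) Agilent array. The deposited files hold an intensity for each of 45018 spots, with background already subtracted by Feature Extraction (version 10.7.3.1 per the file headers, 9.1 per the submitters' processing notes). The authors' deposited matrix holds log2 values with array medians of 6.98 to 6.99. They were compared with normexp (offset 50) and quantile normalization at 40929 single-spot probes, and differed from that recomputation by at most 0.126.

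The intensity of 43379 transcript spots was taken as log2 here, 12 outlier spots were left out, spots of a probe were averaged and each array's 75th percentile was subtracted. Group means were fitted per probe in 1 model of the 12 arrays (limma 3.58.1, R 4.3.3, 8 residual degrees of freedom), with Benjamini-Hochberg adjustment over 27683 probes and a threshold of 0.05. Every adjusted p is two-sided and from this fit, or from the same fit under the alternative named beside it. The code of the fit was also run on simulated data with independent noise and no slide, run or brightness differences. That run does not bear on the calls reported here.

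Named genes are all receptor probes, up to 3 called genes per pathway list and comparison and up to 2 per marker list with the smallest adjusted p, and the 2 genes most like each receptor; Prox1 and Slc17a7 are named besides as tissue markers. Some genes that this rule names are not reported here. The receptors and lists were chosen with earlier results of these data known. Alternatives changed the background correction, scaling, filter, probes, arrays, blocks, moderation and threshold; the list counts under them and the comparison by probe position were added after seeing the data.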

Additional observations from a re-analysis of the deposited data

Results flagged for a closer look

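At 8 receptor probes the response to LPS differed between the times, as tested by the interaction term of the limma fit (log2 response at 24 h minus that at 4 h, 3 arrays per group). Grm5 gave -0.46 at base 1194 (adjusted p = 0.00143), -1.56 at base 5049 (adjusted p = 8.65e-08) and -3.38 at base 5943 (adjusted p = 1.06e-07), with LPS above saline on all 3 slides at 4 h for each. Grm2 gave -1.05 at base 801 (adjusted p = 0.000216) and -0.93 at base 2111 (adjusted p = 7.13e-07), above saline on all 3 slides at 4 h and below it on all 3 at 24 h. Grm7 gave 0.69 at base 1147 (adjusted p = 6.58e-05) and 1.21 at base 1444 (adjusted p = 0.000935), below saline on all 3 slides at 4 h and above it on all 3 at 24 h. Grm8, below saline on all 6 slides, gave 0.23 (adjusted p = 0.00331). The values at Grm2 base 801 and Grm5 base 5943 rest on saline 4 h arrays that were not well above background. At Grm2 base 801 the value was -0.18 with normexp (adjusted p = 0.647) and -0.35 in the authors' deposited matrix. With normexp the calls at Grm5 base 1194 (-0.24, adjusted p = 0.171), Grm7 base 1444 (0.46, adjusted p = 0.312) and Grm8 (0.16, adjusted p = 0.352) were lost too. Over all probes 65.9% were called in this test. Time and scan run cannot be told apart in it, and the saline groups differed between the times at each of these probes.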

How the results depend on the processing

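Of 48 receptor results (12 probes in 4 comparisons), normexp kept 29 calls and directions, quantile normalization 42, the deposited matrix 44, median scaling 45, array weights 45, trend and robust moderation 46. With normexp the counts were 3 higher and 2 lower at 4 h (11982 of all probes called, against 19659), 0 higher and 2 lower at 24 h (4104, against 11548), 1 higher and 3 lower for the difference between times (10152, against 18248), and 4 higher between saline groups. At 24 h the count of higher probes was 1 with quantile normalization, with probes well above background on all 12 arrays, with array weights and at adjusted p under 0.01, 0 in the deposited matrix and with one probe per gene, and 6 against saline of the other time (22125 of all probes called). At 24 h 4 were lower with no filter and when only the 6 arrays of that time were fitted, and 3 at adjusted p under 0.01. With probes well above background on all 12 arrays 3 were higher at 4 h and 3 lower for the difference between times. That setting held fewer receptor probes, and all 32 of their results kept call and direction. With one probe per gene the counts were 2 higher and 2 lower at 4 h, and 1 higher and 2 lower for the difference between times. Between saline groups they were 3 higher and 2 lower. This set was smaller too, and all 24 of its results kept call and direction. Median scaling changed the share of higher calls among all calls from 44.5% to 32.8% at 4 h and from 49.8% to 29.9% at 24 h; with no filter it was 34.4% at 4 h. The median of all probes moved from -0.08 to -0.25 at 4 h with median scaling. Normexp was run with an offset of 50, which makes log2 differences of dim probes smaller. The deposited matrix is close to normexp with that offset and quantile normalization, so the results of these settings are not separate checks. Apart from these smaller sets of probes, the cause of the changes under each setting was not tested.

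Directions turned in these cases. With normexp the differences were -0.018 for Grm2 at base 801 at 4 h, and between saline groups -0.25 for it and -0.80 for Grm4 (adjusted p = 0.00656). Grm4 between saline groups was -0.055 with quantile normalization and -0.047 in the deposited matrix, and ranged from -0.18 (without saline 4 h replicate 1) to 0.44 on leaving out each array. Grm7 at base 2921 gave 0.0037 for the difference between times with median scaling. Grm4 at 4 h ranged from -0.40 to 0.22 on leaving out each array. Against saline of the other time, 4 h values were -0.55 for Grm2 base 801, 0.30 for Grm3, -0.88, -0.79, -1.11 and -0.74 for Grm5 in probe order, and 0.42, 0.49 and 0.25 for Grm7; 24 h values were 0.98 for Grm2 base 801, 1.15, 1.16, 2.16 and 3.30 for Grm5, -0.48 and -0.60 for Grm7 bases 1147 and 1444, and 0.27 for Grm8.

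Leaving out each array gave 5 to 6 higher and 4 lower at 4 h, 1 to 3 higher and 4 to 7 lower at 24 h, 3 to 4 higher and 5 to 6 lower for the difference between times, and 7 higher and 4 lower between saline groups; of all probes 18732 to 19848, 9993 to 11800, 17532 to 18238 and 21181 to 22090 were called. Replicate numbers gave no clear pairing at 4 h. Same-numbered saline and LPS arrays correlated there at 0.080, 0.166 and -0.151, and differently numbered ones at -0.300 to 0.254. At 24 h same-numbered arrays correlated at 0.031, 0.076 and 0.067, above the differently numbered ones at -0.064 to 0.007. Same-numbered arrays shared a slide at 24 h, so number and slide cannot be told apart there. At 4 h the arrays of a slide had different numbers. They correlated at 0.254, -0.051 and 0.169 on slides 1, 2 and 3, and arrays of different slides at -0.300 to 0.166. With slide as a block 34 of 36 results kept their call. With the number as a replicate block 34 of 36 results kept their call, and Grm2 base 801 (adjusted p = 0.0668) and Grm7 base 2921 (adjusted p = 0.0839) lost it at 24 h. With 3 arrays per group, and probes near background in saline 4 h, small differences are limited by signal.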
